A study of Mus musculus with 18 samples.

Results

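Oxidative phosphorylation transcripts were followed in thioglycollate-elicited peritoneal macrophages of the mouse. The members were the rows of the count table whose symbol starts with mt-Nd, mt-Co, mt-Cyt or mt-Atp (the mitochondrial set), or follows the naming patterns Nduf with a letter and a digit, Sdha to Sdhd, Uqcr, Cox4 to Cox8, or Atp5 (the nuclear set). There were 97 such genes of 21831 in the table. The 13 mitochondrial genes fell into complex I (7), complex III (1), complex IV (3) and complex V (2). The 84 nuclear genes fell into complex I (37), complex II (4), complex III (8), complex IV (18) and complex V (17). A filter on low counts kept all 13 mitochondrial genes and 78 of the 84 nuclear genes.

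The libraries fell into 4 groups: PXR-deficient macrophages (dMye) given PCN (dMye_PCN, n = 6) or DMSO (dMye_DMSO, n = 6), and macrophages with floxed PXR (FF) given PCN (FF_PCN, n = 3) or DMSO (FF_DMSO, n = 3). PXR is a nuclear receptor, floxed in FF and, per the labels, deleted in the myeloid cells of dMye. PCN (pregnenolone 16α-carbonitrile) is a ligand of mouse PXR, and DMSO served as the control. The mice were 6-week-old C57BL/6 animals given 1 mL of 3% thioglycollate 3 days before collection. Cells attached for 4 h and then received 20 µM PCN or DMSO for 12 h. The labels name neither the Cre line nor separate animals, so every p-value here rests on how far these libraries spread, and that spread may be technical. The series compared control and PXR-deficient macrophages for their transcriptional response to PCN.

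The respiratory chain passes electrons from NADH (complex I) and succinate (complex II) through complex III to oxygen at complex IV, and the ATP synthase (complex V) uses the proton gradient that complexes I, III and IV build. Complexes I, III, IV and V combine subunits encoded in mitochondrial DNA with subunits encoded in the nucleus, and complex II is wholly nuclear. Mitochondrial DNA is transcribed into long precursors from both strands and then cut into single messages. In macrophages, the balance of respiration and glycolysis shifts with activation.

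Library totals ran from 21993687 to 30228032 expected counts. Levels are given as CPM, the count at a library total of 1000000, and a floor of 3 counts was worth at most 0.136 CPM (counting error only). All 10 macrophage markers were above 1 CPM. The macrophage sum was 8578 to 9235 CPM in dMye_PCN, 8777 to 10706 in dMye_DMSO, 10231 to 10762 in FF_PCN and 13041 to 13718 in FF_DMSO. Lyz2 (lysozyme) carried most of these gaps, and without it the sums of group means were 5480.3 CPM in dMye_PCN, 5436 in dMye_DMSO, 6112 in FF_PCN and 6193 in FF_DMSO. Single markers went both ways between genotypes. Under DMSO 6 of the 10 had the higher mean in dMye and 4 the lower, and under PCN 7 the higher and 3 the lower. All 8 mesothelial and fibroblast markers also averaged above 1 CPM over all libraries, though Upk3b averaged 0.757 CPM in FF_PCN and 0.818 in FF_DMSO. Their sums were 499 to 585 CPM in dMye_PCN, 507 to 639 in dMye_DMSO, 114 to 127 in FF_PCN and 142 to 147 in FF_DMSO. Summed B cell markers (4 of 6 averaging above 1 CPM over all libraries) were 5.06 to 8.51 CPM in dMye_PCN, 5.3 to 7.46 in dMye_DMSO, 7.29 to 11 in FF_PCN and 16 to 21.4 in FF_DMSO. The summed level of 4 Y-linked genes was at most 1.49 CPM in dMye libraries and at least 113 CPM in FF libraries, so genotype and sex cannot be told apart here. Nr1i2, the gene of PXR, had 8 counts over all libraries, which gives no check of the deletion. Fewer cells of a type and less RNA per cell cannot be told apart in such bulk samples.

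One library stood apart in the nuclear set. dMye_DMSO 5 had the highest level of its group in 70 of the 78 tested nuclear members, and their departure grew as the annotated transcript shortened. For the 21 nuclear members under 600 bases the median was 0.94 log2 units above the mean of the groups in that library, against 0.73 for 153 other short genes. For the 8 members of 2000 bases or more it was 0.31, against -0.04 for 9583 other long genes. FF_PCN 2 lay at the other end, with medians of -0.39 for short members and -0.31 for other short genes. Results on the nuclear set are therefore given with and without dMye_DMSO 5.

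**Figure D1:**
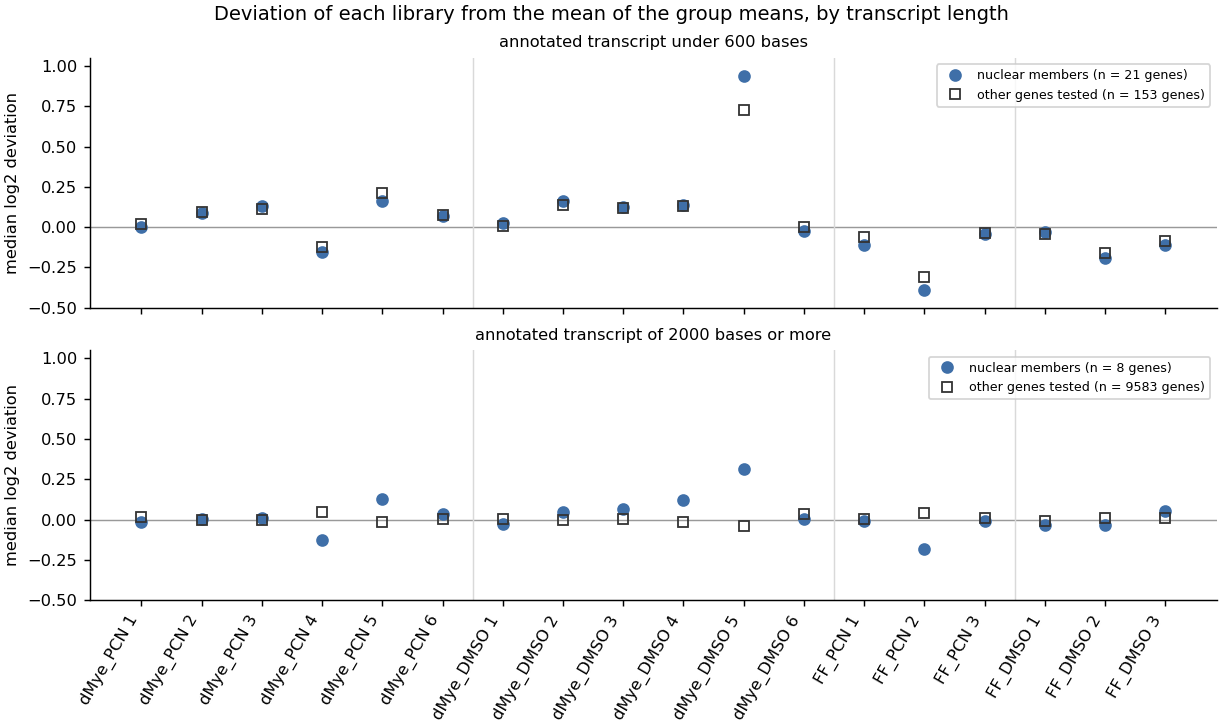
Median log2 deviation of each library (x axis, 18 libraries in 4 groups) from the mean of the group means, for nuclear members (filled circles) and other genes tested (open squares), with transcripts under 600 bases above and of 2000 bases or more below. Short transcripts stood highest in dMye_DMSO 5, at 0.94 for members and 0.73 for other genes, and lowest in FF_PCN 2.

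Mitochondrial messages were far more abundant per length than nuclear ones. The median level over all libraries was 1352 CPM per kilobase of transcript in the 13 mitochondrial genes and 65.5 CPM per kilobase in the 78 tested nuclear genes. The highest mitochondrial level was that of mt-Co1, the catalytic core of complex IV, at 4063 CPM per kilobase, and the lowest that of mt-Atp8, a small ATP synthase subunit, at 78.7. In the nuclear set Cox4i1, a regulatory subunit of complex IV, was highest at 439.9 CPM per kilobase. Median nuclear levels were 116 CPM per kilobase in complex IV, 104 in complex V, 74.4 in complex III, 66.1 in complex II and 43.4 in complex I. mt-Co1 alone held 35.3% of the summed mean level of the mitochondrial set.

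Neighbouring mitochondrial genes overlap, and their reads can be shared. mt-Atp8 and mt-Atp6 share 43 bases on the plus strand of the mitochondrial genome (GRCm38, chrM:7927-7969). They are shown here because reads from these bases fit both genes, with the start codon of mt-Atp6 and the stop codon of mt-Atp8 in capitals:
mt-Atp8 and mt-Atp6 overlap: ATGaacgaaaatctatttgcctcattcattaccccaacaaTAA
mt-Nd4l and mt-Nd4 share 7 bases. mt-Nd5 and mt-Nd6 share 14 bases on opposite strands, and whether reads were counted by strand is not given in the sources used here. mt-Nd6 is the only one of the 13 genes on the minus strand, so antisense reads there cannot be told apart from its own. In the GENCODE M21 annotation, mt-Co2, mt-Atp6, mt-Co3, mt-Nd4 and mt-Nd4l match pseudogenes of chromosome 1 at 100% identity over at least 50% of the transcript. Less exact copies match mt-Nd3 (99.71%, chromosome 1), mt-Co1 (97.61%, chromosome 2) and mt-Nd5 (95.18%, chromosome 13). None of those pseudogenes had a row in the table. The deposited value of mt-Co2 was not a whole number in 18 of 18 libraries, that of mt-Atp6 in 15 and that of mt-Co3 in 8. Levels of all the genes with such copies are less certain than those of the others.

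Mitochondrial messages stood lower with PCN in FF macrophages, and 3 of the 13 genes passed the test. The summed level of the mitochondrial set was 15733, 17217 and 14633 CPM in the FF_PCN libraries, against 19884, 20234 and 18096 CPM in FF_DMSO. The groups did not overlap. The set made up 1.46% to 1.72% of all counts with PCN and 1.81% to 2.02% with DMSO. Summed by complex, FF_PCN averaged 4987 ± 389.8 CPM for complex I, against 5983 ± 320.0 in FF_DMSO (SD, n = 3 each, here and for the other complexes). Complex III, which has mt-Cytb alone, stood at 1459.9 ± 86.9 CPM in FF_PCN and 1677 ± 104 in FF_DMSO. Both groups were apart in each of these sums. Complex IV stood at 8269 ± 691 CPM in FF_PCN and 10258 ± 652 in FF_DMSO. Complex V stood at 1145 ± 146 CPM in FF_PCN and 1487 ± 111 in FF_DMSO. Here too every FF_PCN library was below every FF_DMSO library. Without mt-Co2 and mt-Atp6 the set averaged 13488 ± 821 CPM in FF_PCN and 16203 ± 921 CPM in FF_DMSO.

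**Figure D2:**
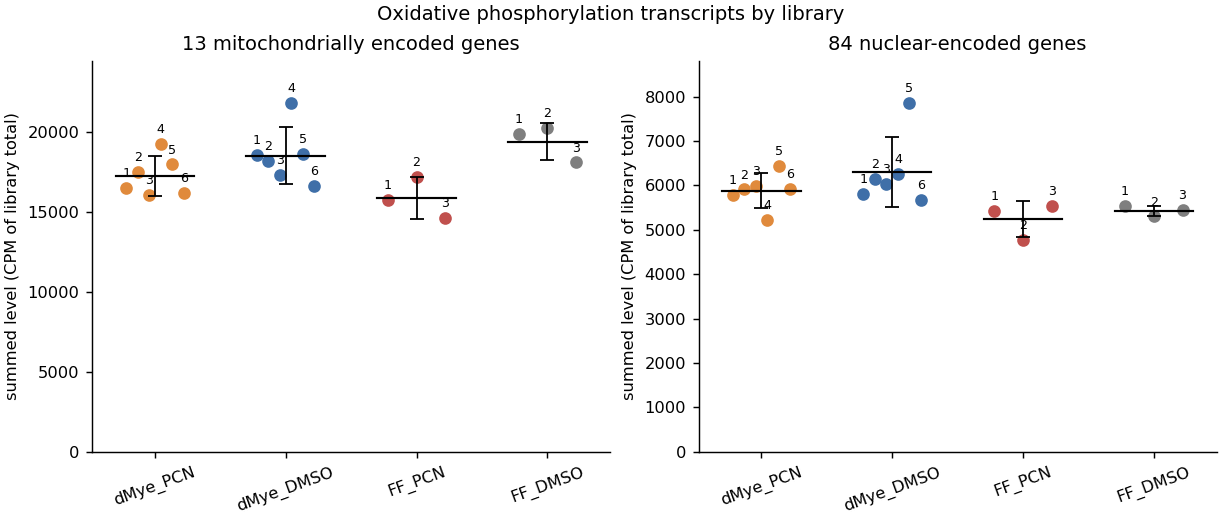
Summed level in CPM of the library total of the 13 mitochondrial genes (left) and the 84 nuclear genes (right) in each library, numbered by replicate, with the group mean (line) and SD (bar). In the mitochondrial set the 3 FF_PCN libraries lie below the 3 FF_DMSO libraries, and in the nuclear set dMye_DMSO 5 lies above all others at 7859 CPM.

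Each gene was tested in one edgeR quasi-likelihood fit of 13409 genes, with Benjamini-Hochberg adjustment over all of them and a threshold of 0.05. Of the 13 mitochondrial genes, 3 fell with PCN in FF (23.1%) and 0 rose, and of the 78 nuclear genes 1 fell (1.28%) and 0 rose. Among all genes tested 6.98% fell and 6.82% rose, 13.8% in either direction. The mitochondrial median was a log2 fold change of -0.31, with all 13 genes negative, against 0.0091 over all genes. All 13 were negative under every one of the 28 settings compared, with medians from -0.37 to -0.26. Many of these settings only left out a dMye library and so kept the same FF counts. The FF_PCN libraries lay wholly below the FF_DMSO libraries in 10 of the 13 genes, while 18.2% of all genes did so. The exceptions were mt-Nd4, mt-Nd4l and mt-Co2. The 13 genes share precursor transcripts and are not independent of each other.

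mt-Co3 (chrM:8607-9390), a core subunit of complex IV, had the lowest adjusted p. It had 1108, 1126 and 1050.3 CPM in FF_PCN and 1712, 1704 and 1495 CPM in FF_DMSO (log2 fold change -0.56 with an SE of 0.10, adjusted p = 0.00053). Its lowest FF_DMSO library lay well above its highest FF_PCN library. mt-Nd6 (chrM:13552-14070), the complex I subunit on the minus strand, had 281, 278 and 249.8 CPM in FF_PCN and 339.5, 366 and 332 CPM in FF_DMSO (log2 fold change -0.34 with an SE of 0.077, adjusted p = 0.00439). mt-Nd5 (chrM:11742-13565), a proton-pumping subunit of complex I, had 1029, 1156 and 969 CPM in FF_PCN and 1314, 1391 and 1269.6 CPM in FF_DMSO (log2 fold change -0.31 with an SE of 0.087, adjusted p = 0.0204). No library of one group reached the other in either gene. The call of mt-Nd5 was lost without FF_DMSO 2, FF_PCN 1 or FF_PCN 3 (adjusted p = 0.0844, 0.0564 and 0.0832 in that order). With an offset for transcript length in each library, chosen after the data were seen, mt-Nd5 and mt-Nd6 were not called (adjusted p = 0.0709 and 0.168), and mt-Co3 was (adjusted p = 0.000592). The number of mitochondrial genes called was 5 without dMye_DMSO 5, with mt-Nd3 and mt-Atp8 added, and 5 without dMye_DMSO 4, with mt-Nd2 and mt-Co1 added.

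The other mitochondrial genes did not pass the test. mt-Nd2, another complex I subunit, had 543, 592 and 484 CPM in FF_PCN and 670.4, 696 and 639 CPM in FF_DMSO (log2 fold change -0.29 with an SE of 0.10, adjusted p = 0.0631). mt-Co1 had 5889, 6262 and 5649 CPM in FF_PCN and 7016, 7197 and 6458 CPM in FF_DMSO (log2 fold change -0.19 with an SE of 0.08, adjusted p = 0.119). mt-Cytb, the cytochrome b of complex III, had 1479, 1535 and 1365 CPM in FF_PCN and 1699, 1768 and 1564 CPM in FF_DMSO (log2 fold change -0.18 with an SE of 0.079, adjusted p = 0.151). Groups did not overlap in these 3 genes, and their differences were smaller than that of mt-Co3. mt-Co2, which carries the first copper centre of complex IV, spread widely within FF_PCN, at 1229.7, 1592 and 900.4 CPM, against 1958, 1679 and 1555 CPM in FF_DMSO (log2 fold change -0.46 with an SE of 0.28, adjusted p = 0.334). Its highest FF_PCN library lay above its lowest FF_DMSO library. The share of mt-Co1 in the mitochondrial sum was 36.4% to 38.6% in FF_PCN and 35.3% to 35.7% in FF_DMSO, so the difference was not even across the set.

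The remaining 6 mitochondrial genes also gave no call, with log2 fold changes from -0.35 (mt-Atp6) to -0.10 (mt-Nd4l). mt-Nd1 had 1190.4, 1268 and 1122 CPM in FF_PCN and 1442, 1482 and 1313 CPM in FF_DMSO. mt-Nd3 had 73.5, 71.7 and 69.9 CPM in FF_PCN and 92.5, 89.3 and 88.5 CPM in FF_DMSO. In both of these complex I genes the FF_PCN libraries were all lower. mt-Nd4 had 1707, 1864 and 1583 CPM in FF_PCN and 1985, 2119.7 and 1849 CPM in FF_DMSO, and mt-Nd4l 143, 158 and 129 CPM in FF_PCN and 154, 151 and 164 CPM in FF_DMSO. These neighbours overlapped between groups. mt-Atp6, part of the proton channel of the ATP synthase, had 1048, 1299.7 and 1048 CPM in FF_PCN and 1484, 1573 and 1355 CPM in FF_DMSO. mt-Atp8 had 12.9, 13.8 and 11.9 CPM in FF_PCN and 17.3, 16.8 and 14.9 CPM in FF_DMSO. The FF_PCN libraries were all lower in both complex V genes.

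**Figure D3:**
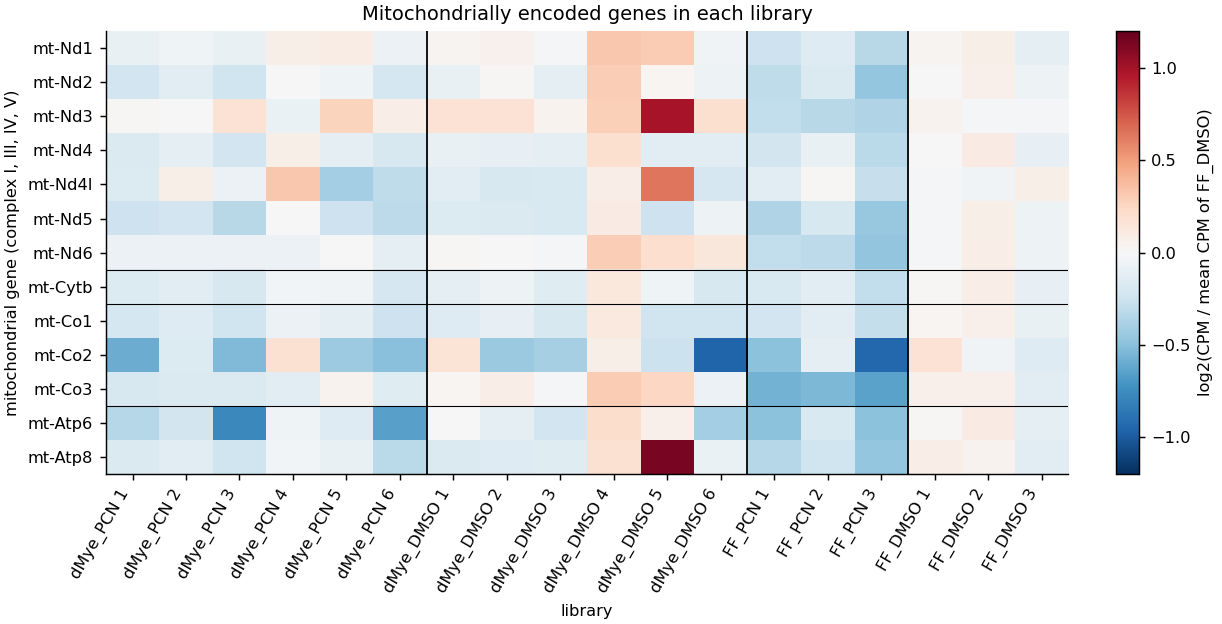
Level of each of the 13 mitochondrial genes (rows, by complex) in each of the 18 libraries (columns, by group) as log2 of its CPM over the mean CPM of FF_DMSO, on a colour scale from blue (lower) to red (higher). FF_PCN columns are blue in nearly every row, mt-Co2 varies within every group, and mt-Nd3, mt-Nd4l and mt-Atp8 are high in dMye_DMSO 5.

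Other measures moved with the lower mitochondrial level in FF. The summed macrophage markers were lower in FF_PCN (10231 to 10762 CPM) than in FF_DMSO (13041 to 13718 CPM). Lyz2, at a mean of 4392 CPM in FF_PCN and 7141 CPM in FF_DMSO, carried most of that gap. Of the 10 macrophage markers 7 had the lower mean in FF_PCN and 3, Cd14, Mrc1 and Cd36, the higher. The sums of mesothelial and fibroblast markers and of B cell markers given above were lower in FF_PCN too. Their part in the mitochondrial result was not tested.

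The nuclear sum overlapped between the groups in FF. It was 5431, 4776 and 5533 CPM in FF_PCN, against 5535, 5302 and 5442 CPM in FF_DMSO. FF_PCN 2 was lowest of its group in 68 of 78 nuclear members and highest in 11 of 13 mitochondrial ones. FF_DMSO 2 (lowest in 49 nuclear, highest in 8 mitochondrial) and dMye_PCN 4 (lowest in 60 nuclear, highest in 9 mitochondrial) showed the same opposite placing within their groups. The nuclear median log2 fold change was -0.014, with 34 genes positive and 44 negative, and it turned to 0.057 without FF_PCN 2. By complex the medians were -0.021 in complex I, 0.028 in complex II, -0.049 in complex III, 0.0083 in complex IV and -0.0078 in complex V. The ratio of the mitochondrial to the nuclear sum was 2.64 to 3.61 in FF_PCN and 3.33 to 3.82 in FF_DMSO, and these ranges overlapped.

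Atp5a1, the alpha subunit of the ATP synthase head, was the nuclear gene that fell, a call kept in every setting compared. It had 228, 205 and 240.1 CPM in FF_PCN and 285, 279 and 297 CPM in FF_DMSO (log2 fold change -0.33 with an SE of 0.075, adjusted p = 0.00422). All FF_PCN libraries were below all FF_DMSO libraries. Its partner in the catalytic head, Atp5b, the beta subunit, had 501, 492 and 522 CPM in FF_PCN and 497, 505 and 505 CPM in FF_DMSO (log2 fold change 0.03 with an SE of 0.062, adjusted p = 0.82). Nuclear members with no overlap were 11 below and 1 above (Ndufb8), or 14.1% and 1.28% of 78, against 18.2% and 15.3% of all genes. The 11 were Ndufa4, Ndufa11, Ndufb2, Ndufb7, Ndufv2, Uqcrb, Cox6a2, Atp5a1, Atp5c1, Atp5h and Atp5l. Without dMye_DMSO 5, which enters the common estimate of spread, Cox6a2 and Ndufa4 were also called lower (log2 fold changes -0.29 and -0.29).

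Complex II gave no call in FF. Sdha, the flavoprotein that oxidises succinate, had 254, 242 and 265 CPM in FF_PCN and 245, 243 and 253 CPM in FF_DMSO (log2 fold change 0.061 with an SE of 0.049, adjusted p = 0.475). Sdhb, the iron-sulfur subunit, averaged 73.5 ± 2.67 CPM in FF_PCN and 77.8 ± 3.9 CPM in FF_DMSO (SD, n = 3 each, as for the means that follow). The membrane anchor Sdhc averaged 82 ± 7.43 CPM in FF_PCN and 83.6 ± 0.569 in FF_DMSO, and the anchor Sdhd 72.1 ± 7.95 in FF_PCN and 70.1 ± 1.5 in FF_DMSO. Groups overlapped in all 4 genes. The core subunits of complex I were not called either. Ndufs1, which carries iron-sulfur clusters, averaged 69.3 ± 2.31 CPM in FF_PCN and 74 ± 4.32 in FF_DMSO, and Ndufv1, the NADH-binding subunit, 72.7 ± 4.65 in FF_PCN and 68.2 ± 2.74 in FF_DMSO (SD, n = 3 each). Ndufs3, another core subunit with a near-identical pseudogene, averaged 39.7 ± 8.93 CPM in FF_PCN and 34.1 ± 0.832 in FF_DMSO. Groups overlapped in Ndufs1, Ndufv1 and Ndufs3. In complex III, Uqcrc1, a core subunit, averaged 141 ± 4.22 CPM in FF_PCN and 149 ± 7.23 in FF_DMSO, and Uqcrfs1, the Rieske iron-sulfur protein, 103 ± 10.1 in FF_PCN and 97.9 ± 3.23 in FF_DMSO. In complex IV, Cox4i1 averaged 294 ± 25.9 CPM in FF_PCN and 305 ± 13.2 in FF_DMSO, and Ndufa4, a small subunit, 39.8 ± 4.96 in FF_PCN and 49 ± 2.21 in FF_DMSO (log2 fold change -0.28 with an SE of 0.17, adjusted p = 0.319).

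In dMye macrophages no member passed the test for PCN. The mitochondrial sum was 16043 to 19259 CPM in dMye_PCN (median 17019.6) and 16607 to 21816 CPM in dMye_DMSO (median 18369.6), and the groups overlapped. edgeR called 0 of 91 members, while 0.94% of all genes rose and 1.14% fell, 2.08% in either direction. The groups overlapped in all 91 members, while all dMye_PCN libraries were above all dMye_DMSO libraries in 1.03% of all genes and below them in 1.31%. At an unadjusted p under 0.05 there were 4 mitochondrial and 6 nuclear genes, DESeq2 called mt-Co3 and mt-Nd6 lower, and limma-voom called 0. The share of all genes at that unadjusted threshold is not given here, so those counts are not read as an excess. All 13 mitochondrial genes were again negative, with a median of -0.14, but 2 were positive without dMye_DMSO 4, 1 without dMye_DMSO 1 or dMye_DMSO 5, and 3 with the offset for transcript length. mt-Co3 was at 1435 to 1688 CPM (median 1466) in dMye_PCN and 1556 to 2020.2 CPM (median 1697) in dMye_DMSO (log2 fold change -0.23 with an SE of 0.069, adjusted p = 0.0902). mt-Nd6 was at 320.1 to 344 CPM (median 329) in dMye_PCN and 343 to 424 CPM (median 365) in dMye_DMSO (log2 fold change -0.18 with an SE of 0.054, adjusted p = 0.0908). In both genes 5 of 6 dMye_PCN libraries lay below the lowest dMye_DMSO library.

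The nuclear set in dMye depended on a single library. With all libraries, 76 of 78 nuclear genes were negative with a median of -0.13. Atp5g2, a gene for the c ring of the ATP synthase, was a positive exception at 0.34 (SE 0.14, adjusted p = 0.243), and Uqcrc2 stood at 0.006. Without dMye_DMSO 5 the median was -0.028, with 26 genes positive and 52 negative. Spearman's rho of the log2 fold change with transcript length across the 78 genes was 0.57 with that library and 0.085 without it. The correlation is across genes of the same libraries, which are not independent. Complex by complex, the medians with all libraries were -0.13 in complex I, -0.045 in complex II, -0.15 in complex III, -0.16 in complex IV and -0.13 in complex V.

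No member passed the interaction test, which compares the PCN effects of both genotypes. edgeR called 0 of 91 members, against 1.42% of all genes (0.746% higher and 0.671% lower), with 2 members at an unadjusted p under 0.05, and DESeq2 also called 0. For mt-Co3 the difference, dMye minus FF, was 0.33 on the log2 scale (SE 0.12, adjusted p = 0.208). It was 0.16 for mt-Nd6 (SE 0.094, adjusted p = 0.524), 0.20 for mt-Nd5 (SE 0.11, adjusted p = 0.457) and 0.19 for Atp5a1 (SE 0.092, adjusted p = 0.401). The calls in FF therefore do not show an effect particular to that genotype. The mitochondrial median of the difference was 0.12, and the nuclear median -0.10, or 0.022 without dMye_DMSO 5.

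**Figure D4:**
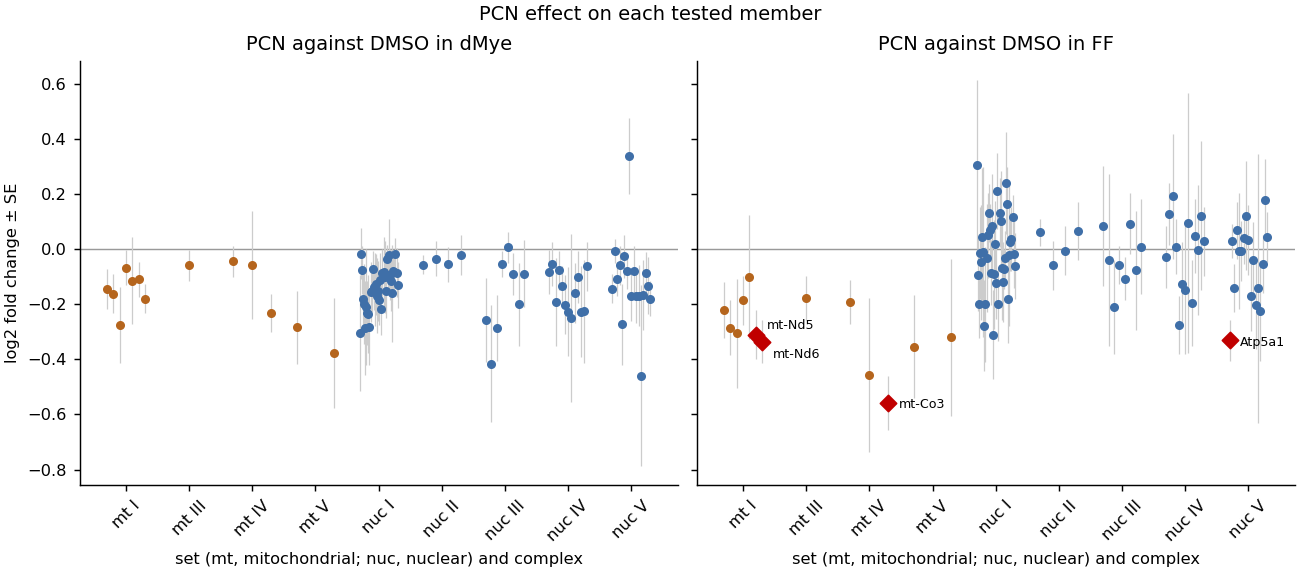
Log2 fold change (y axis, with SE) of PCN against DMSO for each of the 91 tested members in dMye (left) and FF (right), by set and complex on the x axis. Red diamonds mark the 4 genes called in FF, mt-Co3, mt-Nd5, mt-Nd6 and Atp5a1, and no gene was called in dMye.

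Under DMSO most nuclear members stood slightly higher in dMye than in FF, and few passed the test. The nuclear sum was 5684 to 7859 CPM in dMye_DMSO (median 6094), against 5535, 5302 and 5442 CPM in FF_DMSO. Every dMye_DMSO library was above every FF_DMSO library. Of the 78 nuclear genes 4 were called higher in dMye (5.13%) and 0 lower, while 13.9% of all genes were higher and 7.85% lower, 21.8% in either direction. The share of calls was thus below that of all genes. The median log2 fold change was 0.24, with 73 genes positive, against 0.021 over all genes. No overlap, with dMye_DMSO above, was seen in 35 of 78 genes (44.9%), against 17.3% of all genes, and with dMye_DMSO below in 0, against 6.26%. By complex, dMye_DMSO lay above without overlap in 14 of 36 genes of complex I, 2 of 4 of complex II, 6 of 8 of complex III, 9 of 13 of complex IV and 4 of 17 of complex V. At an unadjusted p under 0.05 there were 38 of the 78 nuclear genes. At least 21.8% of all genes passed that threshold too, being called at the adjusted one. Their full share at the unadjusted threshold is not given here. The count is not read as an excess. With all libraries, dMye_DMSO 5 included, the median log2 fold changes were 0.29 in complex I, 0.071 in complex II, 0.36 in complex III, 0.32 in complex IV and 0.17 in complex V. The complexes also differ in median transcript length, at 870, 2065.5, 755, 612 and 955 bases in the same order. The part of length in the differences between complexes was not tested. The median coefficient of variation of the nuclear genes was 9.22% in dMye_PCN, 15.3% in dMye_DMSO (6.22% without dMye_DMSO 5), 11% in FF_PCN and 4.55% in FF_DMSO.

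The 4 genes called under DMSO were accessory subunits of complex I. Ndufa8 (chr2:36036326-36049406, GRCm38), which lies on the intermembrane side, was at 35.6 to 45 CPM (median 40.8) in dMye_DMSO, against 31, 32 and 30.8 CPM in FF_DMSO (log2 fold change 0.36 with an SE of 0.092, adjusted p = 0.00626). Its lowest dMye_DMSO library was above all FF_DMSO libraries, and the call was kept in every setting compared. Ndufa12 (chr10:94198720-94221443) was at 30 to 48.8 CPM (median 33.3) in dMye_DMSO, against 27.3, 23.8 and 27.4 CPM in FF_DMSO (log2 fold change 0.41 with an SE of 0.15, adjusted p = 0.0493). Ndufb10 (chr17:24722060-24724478) was at 54.3 to 73.2 CPM (median 57.3) in dMye_DMSO, against 48.6, 43.5 and 50.4 CPM in FF_DMSO (log2 fold change 0.30 with an SE of 0.10, adjusted p = 0.0423). Ndufa1 (chrX:37187588-37191163), which is X-linked, was at 20.2 to 46.6 CPM (median 24.8) in dMye_DMSO, against 16.5, 15.5 and 15.6 CPM in FF_DMSO (log2 fold change 0.78 with an SE of 0.27, adjusted p = 0.0488). The highest value of the last 3 genes was that of dMye_DMSO 5, and groups did not overlap. Ndufa1 is one of 3 X-linked members, and the groups also differ in sex. Without dMye_DMSO 5 their adjusted p were 0.0589 for Ndufa12, 0.0699 for Ndufb10 and 0.056 for Ndufa1, and each call was also lost without some of the other libraries. The deposited values of Ndufa12 and Ndufb10 were not whole numbers in any library, nor were those of Ndufb2 and Atp5a1.

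In complexes IV and III no gene was called with all libraries, and some lay near the threshold. Cox7a2l, placed in complex IV by its name, was at 220.0 to 319 CPM (median 243) in dMye_DMSO, against 202, 192 and 199.5 CPM in FF_DMSO (log2 fold change 0.32 with an SE of 0.12, adjusted p = 0.0627). Cox8a, a small structural subunit, was at 137 to 201 CPM (median 142) in dMye_DMSO, against 123, 118 and 124 CPM in FF_DMSO (log2 fold change 0.29 with an SE of 0.11, adjusted p = 0.067). Uqcr11, a small complex III subunit, was at 13.9 to 37.6 CPM (median 16.8) in dMye_DMSO, against 12.3, 10.1 and 12.2 CPM in FF_DMSO (log2 fold change 0.75 with an SE of 0.27, adjusted p = 0.0588). In each of the 3 genes the dMye_DMSO libraries were all higher. Without dMye_DMSO 5 the 5 nuclear genes called higher were Cox8a (0.16), Uqcr11 (0.44), Cox5b (0.34), Cox6b1 (0.22) and Ndufa8 (0.31), each as a log2 fold change. Uqcr11, Cox5b and Cox6b1 were named after their values were seen. The share of all genes called without that library was not set beside the count of 5.

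Differences were small in long nuclear transcripts. Atp5b was at 498 to 569 CPM (median 527) in dMye_DMSO, against 497, 505 and 505 CPM in FF_DMSO (log2 fold change 0.066 with an SE of 0.053, adjusted p = 0.404). Sdha was at 258 to 277 CPM (median 267) in dMye_DMSO, against 245, 243 and 253 CPM in FF_DMSO (log2 fold change 0.084 with an SE of 0.042, adjusted p = 0.16). Uqcrc1 was at 139 to 164 CPM (median 147) in dMye_DMSO, against 156, 148 and 142 CPM in FF_DMSO (log2 fold change -0.024 with an SE of 0.058, adjusted p = 0.799). The groups overlapped in Atp5b and Uqcrc1 and not in Sdha. Spearman's rho of the log2 fold change with transcript length was -0.57 across the 78 nuclear genes and -0.24 across 13273 other genes, as a description. For members under 600 bases the median log2 fold change was 0.38, and for other genes of that length 0.31. For members of 600 to 1000 bases it was 0.31, against 0.19 in 649 others, and for members of 2000 bases or more 0.081, against -0.024 in 9583 others. Without dMye_DMSO 5 the nuclear median was 0.14, with 67 of 78 positive, and rho was -0.43. With the offset for transcript length the median was 0.076 with 59 of 78 positive. In that setting 9 nuclear genes were called higher and 3 lower. The share of all genes called there was not set beside these counts.

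**Figure D5:**
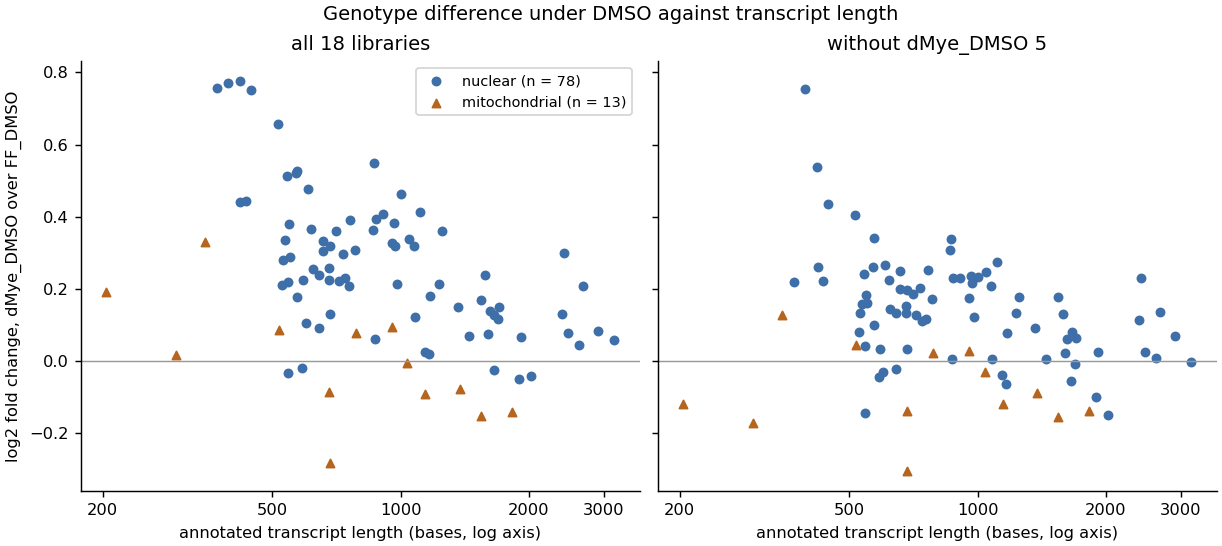
Log2 fold change of dMye_DMSO over FF_DMSO (y axis) against annotated transcript length in bases (x axis, log scale) for 78 nuclear members (circles) and 13 mitochondrial genes (triangles), with all 18 libraries (left) and without dMye_DMSO 5 (right). The nuclear median was 0.24 with all libraries and 0.14 without dMye_DMSO 5, and short nuclear transcripts lie highest in both plots.

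The mitochondrial set gave no call between genotypes under DMSO. edgeR called 0 of 13 (1 at an unadjusted p under 0.05), DESeq2 called 0, and the median was -0.0048, with 6 genes positive and 7 negative. The median changed sign between settings, from -0.20 with the length offset to 0.035 with upper-quartile scaling, and was -0.12 without dMye_DMSO 5. mt-Nd3 was the one gene without overlap, at 92.6 to 179 CPM (median 103) in dMye_DMSO, against 92.5, 89.3 and 88.5 CPM in FF_DMSO (log2 fold change 0.33 with an SE of 0.17, adjusted p = 0.185). The ratio of mitochondrial to nuclear sums was 2.37 to 3.49 in dMye_DMSO, against 3.33 to 3.82 in FF_DMSO.

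Under PCN, 3 of 78 nuclear genes (3.85%) and 2 of 13 mitochondrial genes (15.4%) were higher in dMye and 0 lower, while 16.2% of all genes were higher and 11.4% lower, 27.6% in either direction. The nuclear share was below that of all genes, and the mitochondrial share near it. The comparison shares the FF_PCN libraries with the PCN effect in FF. mt-Co3 was at 1435 to 1688 CPM (median 1466) in dMye_PCN, against 1108, 1126 and 1050.3 CPM in FF_PCN (log2 fold change 0.40 with an SE of 0.086, adjusted p = 0.00127). mt-Nd6 was at 320.1 to 344 CPM (median 329) in dMye_PCN, against 281, 278 and 249.8 CPM in FF_PCN (log2 fold change 0.24 with an SE of 0.067, adjusted p = 0.0089). Every dMye_PCN library was higher than the FF_PCN libraries in both genes. The call of mt-Nd6 was lost without FF_PCN 3 (adjusted p = 0.0655) and with the length offset (adjusted p = 0.752).

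Among nuclear genes under PCN, Atp5a1 was at 253 to 305 CPM (median 279) in dMye_PCN, against 228, 205 and 240.1 CPM in FF_PCN (log2 fold change 0.27 with an SE of 0.066, adjusted p = 0.00412). Its groups did not overlap. Ndufb2 (chr6:39592574-39603382), an accessory subunit of complex I, was at 11 to 18.7 CPM (median 15) in dMye_PCN, against 10.5, 8.64 and 12 CPM in FF_PCN (log2 fold change 0.48 with an SE of 0.14, adjusted p = 0.0133). The groups overlapped in Ndufb2, and without FF_PCN 2 its adjusted p was 0.107. The number of nuclear calls was 20 without dMye_DMSO 5, a library outside this pair of groups that enters the common estimate of spread. The share of all genes called in that setting was not set beside it, so this count is not read as an excess. The nuclear median was 0.16 with 68 of 78 positive (0.035 and 48 of 78 with the length offset), and 12.8% of the nuclear set had no overlap with dMye above, against 19.1% of all genes, and 0 with dMye below, against 7.58%.

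The sums of mesothelial and fibroblast markers were higher in all dMye libraries than in all FF libraries, as given above, and the monocyte markers summed to 317 to 388 CPM in dMye_DMSO, against 206 to 218 CPM in FF_DMSO. Their part in the genotype differences was not tested.

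Cox6a2, the isoform of a complex IV subunit known from heart and skeletal muscle, was expressed beside the common isoform Cox6a1. It lies on the minus strand at chr7:128205435-128206387, within the span of Itgad on the plus strand, and Itgad itself had 236 counts over all libraries. Cox6a2 was at 35.1 to 44.3 CPM (median 36) in dMye_PCN, against 30.2, 25 and 28.7 CPM in FF_PCN (log2 fold change 0.37 with an SE of 0.093, adjusted p = 0.00484). Under DMSO it was at 37.1 to 47.4 CPM (median 40.6) in dMye_DMSO, against 35.3, 33.1 and 34.9 CPM in FF_DMSO (log2 fold change 0.22 with an SE of 0.091, adjusted p = 0.0824). The dMye libraries were above the FF libraries in both comparisons, and the call under PCN was kept in every setting compared. Cox6a2 made up 18.5% to 22.5% of the summed level of both isoforms in dMye_PCN, 19.5% to 22.5% in dMye_DMSO, 17% to 17.5% in FF_PCN and 19.9% to 20.5% in FF_DMSO. The share was lowest in the FF_PCN libraries. Cox6a1 was at 135 to 159 CPM (median 152) in dMye_PCN and 145, 122 and 135 CPM in FF_PCN (log2 fold change 0.092 with an SE of 0.088, adjusted p = 0.479).

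Other tissue isoforms were near or at 0. Cox7a1, the muscle form of another complex IV subunit, passed the filter with 0.511 ± 0.146 CPM in dMye_DMSO (n = 6) and 0.293 ± 0.0981 CPM in FF_DMSO (SD, n = 3), whereas its common counterpart Cox7a2 averaged 47.1 ± 6.47 CPM in dMye_DMSO and 37.5 ± 4.85 CPM in FF_DMSO. The 6 members that did not pass were Ndufa4l2, Cox4i2, Cox6b2, Cox7b2, Cox8b and Cox8c. Cox8c had 0 counts in all libraries, and none of the 6 exceeded 0.455 CPM in any library. Cox4i2 and Ndufa4l2 are known for their induction by low oxygen, and their common counterparts were well expressed, with Cox4i1 at 305 ± 13.2 CPM and Ndufa4 at 49 ± 2.21 CPM in FF_DMSO (SD, n = 3). Of the 3 genes that encode the same c subunit of the ATP synthase, Atp5g3 gave 44.3% to 54.2% of their summed level over all libraries, Atp5g1 37.5% to 41.6% and Atp5g2 6.39% to 14.5%. Atp5g1 and Atp5g2 have near-identical pseudogenes, as do 13 nuclear members in all, so their values are less certain. By name alone the set also takes in Ndufa4, which is now placed in complex IV, and Atp5s and Atp5sl, which are not subunits of the ATP synthase.

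Around the respiratory chain, Ucp2 fell with PCN in both genotypes. Ucp2, a carrier of the inner mitochondrial membrane, averaged 182 ± 6.11 CPM in FF_PCN and 294 ± 8.69 CPM in FF_DMSO (SD, n = 3 each; log2 fold change -0.67 with an SE of 0.064, adjusted p = 4.99e-07). In dMye it averaged 196 ± 6.74 CPM with PCN and 240.3 ± 21.3 CPM with DMSO (SD, n = 6 each; log2 fold change -0.30 with an SE of 0.045, adjusted p = 0.000864). The effects differed between genotypes by 0.37 on the log2 scale, dMye minus FF (edgeR interaction, SE 0.079, adjusted p = 0.0208). Of 8 tested carrier genes it alone was called with PCN in either genotype. Of all genes 6.98% fell in FF and 1.14% in dMye. Slc25a4, an ADP/ATP carrier, was higher in dMye under PCN (38.6 ± 4.33 CPM in dMye_PCN, n = 6, and 25.3 ± 5.24 in FF_PCN, n = 3; log2 fold change 0.56 with an SE of 0.14, adjusted p = 0.00503). It was higher in dMye under DMSO too (47.2 ± 6.74 CPM in dMye_DMSO and 32.3 ± 2.72 in FF_DMSO; log2 fold change 0.53 with an SE of 0.14, adjusted p = 0.00877).

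Of 18 tested regulators of mitochondrial gene programmes, 7 rose and 1 fell with PCN in FF, where 6.82% of all genes rose and 6.98% fell. Nrf1, a transcription factor that binds promoters of respiratory genes, averaged 57.2 ± 4.55 CPM in FF_PCN and 48.1 ± 2.72 CPM in FF_DMSO (SD, n = 3 each; log2 fold change 0.27 with an SE of 0.068, adjusted p = 0.00924). Myc, a growth-promoting factor, averaged 42.1 ± 2.14 CPM in FF_PCN and 29 ± 3.02 CPM in FF_DMSO (log2 fold change 0.56 with an SE of 0.074, adjusted p = 2.1e-05). The other genes that rose were Ddit3, Ppard, Pparg, Atf5 and Hif1a, with log2 fold changes from 0.19 to 0.51. Nfe2l2, a regulator of antioxidant genes, fell (log2 fold change -0.20 with an SE of 0.045, adjusted p = 0.00462). In dMye 2 of the 18 rose with PCN, Myc at 0.25 and Ddit3 at 0.22, and 0 fell, against 0.94% and 1.14% of all genes. Under PCN 8 of the 18 were lower in dMye than in FF and 0 higher, against 11.4% and 16.2% of all genes. Nrf1 averaged 47.6 ± 1.57 CPM in dMye_PCN (SD, n = 6; log2 fold change -0.31 with an SE of 0.059, adjusted p = 0.000308). It was lower in dMye under DMSO too, at 43 ± 2.52 CPM in dMye_DMSO (log2 fold change -0.19 with an SE of 0.059, adjusted p = 0.0258). No interaction was called for Nrf1. Under DMSO Sirt1 and Hif1a were also lower in dMye, and Myc and Ddit3 higher. Of all genes 7.85% were lower in that comparison and 13.9% higher. The list was compiled with earlier results of these data known. Its median log2 fold change for PCN was 0.17 in FF and 0.085 in dMye.

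The genes that express mitochondrial DNA gave 0 edgeR calls for PCN in either genotype, of 25 tested (2 in FF and 1 in dMye at an unadjusted p under 0.05). For all genes the share called with PCN, in either direction, was 13.8% in FF and 2.08% in dMye. The list holds the transcription factor Tfam, the polymerase Polrmt and RNA-processing proteins, and its median log2 fold change was -0.08 in FF and 0.019 in dMye. Of 15 complex I assembly genes 0 were called with PCN (0 in FF and 1 in dMye at an unadjusted p under 0.05), and of 32 assembly genes of complexes II to V 1 rose in FF (Tmem70, 0.26, a factor of ATP synthase assembly) and 0 changed in dMye. In the mitochondrial ribosome 4 of 78 genes rose in FF and 0 in dMye, against 6.82% and 0.94% of all genes. Of 10 subunits and carriers outside the naming pattern, among them Ndufab1 and cytochrome c1 (Cyc1), 0 were called in any of the 5 comparisons, with 0 to 3 at an unadjusted p under 0.05. The share of all genes called ran from 1.42% (interaction) to 27.6% (dMye against FF under PCN). Genes whose symbols start with Rpl or Rps and a digit, a pattern that also takes in Rps6ka kinases and pseudogenes, had a median log2 fold change of 0.27 for dMye over FF under DMSO, against 0.24 in the nuclear set and 0.095 in the mitochondrial ribosome.

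In the TCA cycle, which feeds the chain, 2 of 20 genes fell with PCN in FF and 0 rose, against 6.98% and 6.82% of all genes (median log2 fold change -0.045). Idh2, the mitochondrial NADP-dependent isocitrate dehydrogenase, averaged 34.8 ± 0.5 CPM in FF_PCN and 44.1 ± 0.782 CPM in FF_DMSO (SD, n = 3 each; log2 fold change -0.32 with an SE of 0.072, adjusted p = 0.00416). Pdha1, a subunit of pyruvate dehydrogenase, was the other (-0.25). In dMye, where 1.14% of all genes fell and 0.94% rose, 1 of the 20 fell, Idh2 (log2 fold change -0.20 with an SE of 0.051, adjusted p = 0.0388). In glycolysis, read against the same shares of all genes, 3 of 20 genes rose and 3 fell in FF (median -0.11), and 1 rose and 3 fell in dMye (median -0.11). Slc2a1, a glucose transporter, averaged 74.1 ± 6.26 CPM in FF_PCN and 48 ± 6.19 CPM in FF_DMSO (log2 fold change 0.65 with an SE of 0.094, adjusted p = 5.41e-05), and rose by 0.29 in dMye. Eno1 (enolase) and Gpi1 (glucose-6-phosphate isomerase) fell in both genotypes, by 0.44 and 0.23 on the log2 scale in FF and by 0.20 and 0.13 in dMye. The hexokinase gene Hk3 rose in FF by 0.39, and its effects differed between genotypes (log2 fold change -0.29 with an SE of 0.051, adjusted p = 0.00637). Among 14 genes that remove superoxide and peroxide, Gpx1, a glutathione peroxidase, fell in FF and in dMye (log2 fold changes -0.48 and -0.28) and no other gene of the list was called with PCN, so that 1 of 14 fell in each genotype against 6.98% of all genes in FF and 1.14% in dMye.

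The promoters of the nuclear set were read for the letters of motifs known from respiratory genes, those of NRF1 (the protein of Nrf1), ETS factors and YY1. RefSeq windows of 250 bases before to 50 bases after the start (GRCm38.p6) were matched for 69 of the 84 nuclear members. The NRF1 palindrome, whose letters stand in capitals in the sequences shown here, was searched on both strands. A gene counted once if any of its windows held the letters. The palindrome was found in 5 of the 69 members (7.2%), against 1.07% of all 27025 genes with a window and 2.27% of those tested here. With the base after its first GCGCA left free, it was found in 17 members (24.6%), against 5.19% and 11% of the same genes. The ETS letters CCGGAAGT, on both strands, were found in 5 members (7.2%, against 4.31% and 8.65%) and the YY1 letters AAGATGGC in 11 (15.9%, against 3.19% and 5.09%). Of the members with the exact NRF1 letters, 4 are shown, since they hold the motif before the start. The capitals mark it, and each line runs 5′ to 3′ on the strand of the gene:
Atp5g2, chr15:102671050-102671119, minus strand: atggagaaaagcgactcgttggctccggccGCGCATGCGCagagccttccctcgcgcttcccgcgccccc
Atp5k, chr5:108434410-108434479, minus strand: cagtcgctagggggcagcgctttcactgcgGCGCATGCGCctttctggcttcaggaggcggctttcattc
Cox6a1, chr5:115349081-115349150, minus strand: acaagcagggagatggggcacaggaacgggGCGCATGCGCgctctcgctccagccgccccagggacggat
Ndufa11, chr17:56717672-56717741, plus strand: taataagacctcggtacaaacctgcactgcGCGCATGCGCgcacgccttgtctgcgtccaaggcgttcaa
The first base of the motif lay 42 bases before the start in Atp5g2, 50 in Atp5k, 162 in Cox6a1 and 60 in Ndufa11. Atp5k encodes a small membrane subunit of the ATP synthase, and Ndufa11 a membrane subunit of complex I. None of these genes was called in any comparison. Their log2 fold changes for PCN in FF were 0.12 for Atp5g2, -0.14 for Atp5k, 0.0083 for Cox6a1 and -0.20 for Ndufa11, and that of Uqcrc1, which holds the motif 30 bases after the start, was -0.058. The matches describe letters and not bound sites.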

How the data were processed

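RNA-seq of 18 libraries of peritoneal macrophages was used. The deposited table holds expected counts per gene, estimated counts that need not be whole, which the authors made from the reads; mm10 is the build named, per the submitters' processing notes. Neither aligner, counting program, gene models nor strand setting is stated in the labels or file headers. The counts were rounded to whole numbers. edgeR 4.0.16 (R 4.3.3) filtered genes with filterByExpr, scaled libraries with TMM and fitted 1 robust quasi-likelihood model of group means over all 18 libraries. Its adjusted p is Benjamini-Hochberg over 13409 genes, with a threshold of 0.05. Counts at an unadjusted p under 0.05 stand without the full share of all genes at that threshold and are not read as an excess. The SE of a log2 fold change was taken from its F statistic. The common biological coefficient of variation was 9.69%. The fit was tested on simulated counts. Levels are CPM of the unscaled library total, from 21993687 to 30228032 counts, and intervals or floors cover counting error only.

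Transcript lengths, the median over a gene's principal or coding transcripts, and gene positions come from GENCODE M21 (GRCm38). Near-identical copies were found with blastn 2.17.0 (at least 95% identity over at least 50% of the transcript). Figures were drawn with matplotlib 3.10.9, and Python 3.11.15 with pandas 2.3.3 was used. DESeq2 1.42.0, limma-voom 3.58.1, RLE and upper-quartile scaling, scaling without mitochondrial genes, no filter, a filter of 1 CPM in 6 libraries, a fit of only the groups compared, each library left out and an offset for transcript length (a lowess curve of log2 deviation on length over non-member genes in each library) were the alternatives. Genes were named by rule: up to 3 called members per complex, set and direction by smallest p, the 13 mitochondrial genes, and a list of subunits and isoforms, and up to 3 called genes by smallest p from each pathway list. The members and the lists were chosen with earlier results of these data known. The labels give no batch and pair no libraries. A further allele that the labels give to all 4 groups is not reported here.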

Additional observations from a re-analysis of the deposited data

Results flagged for a closer look

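Of 62 groups of values tested, 19 held a library whose gap to the nearest of the others took an unusually large part of the group's range. Chance flags about 1 in 20 of independent groups chosen beforehand. These groups share genes and libraries, and some genes were named after their values were seen. The count of 19 can therefore not be set against chance. In dMye_DMSO, library 5 was far above the others in the summed level of the nuclear set (7859 CPM) and of its complex I (2191 CPM), complex III (791 CPM) and complex IV (1949.9 CPM). It was also far above them in Ndufa1 (46.6 CPM), Ndufa12 (48.8 CPM), Ndufb10 (73.2 CPM), Uqcr11 (37.6 CPM), Cox5b (169 CPM) and Atp5k (31.4 CPM, with the next library at 10.03 CPM). Among mitochondrial genes the same library was far above the others in mt-Nd3 (179 CPM), mt-Nd4l (244 CPM) and mt-Atp8 (35.9 CPM). Over all 78 tested nuclear members, 43 were flagged in dMye_DMSO, each with library 5 high, and 5 in dMye_PCN. mt-Co1 stood out in dMye_DMSO 4 (7454 CPM). In dMye_PCN, library 5 stood high in Cox6a2 (44.3 CPM) and mt-Co3 (1688.0 CPM), and library 4 stood high in mt-Nd5 (1325 CPM) and low in Ndufa12 (24.3 CPM) and Uqcr11 (10.9 CPM). The cause of these departures was not tested.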

How the results depend on the processing

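No value past the threshold changed sign in the settings run. The sign of 4 set medians did change: the nuclear median for PCN in FF was 0.057 without FF_PCN 2, the nuclear median of the difference between PCN effects was 0.022 without dMye_DMSO 5, and the mitochondrial median between genotypes ran from -0.20 to 0.035 under DMSO and was -0.011 under PCN with the length offset. The calls of mt-Co3 and Atp5a1 in FF held in every setting. The number of nuclear genes called between genotypes under DMSO was 10 with upper-quartile scaling, 1 with no filter, 15 with DESeq2, 2 with limma-voom, 2 with only the groups compared and 12 with the length offset, 3 of them lower in dMye. Under PCN it was 6 with upper-quartile scaling, 5 with DESeq2, 16 with only the groups compared and 10 with the length offset. For PCN in FF, 5 nuclear and 9 mitochondrial genes were called with only the groups compared, and 7 nuclear genes with the length offset. DESeq2 called 2 mitochondrial genes for PCN in dMye. Between genotypes, mitochondrial calls were 4 under PCN with only the groups compared, and 1 under PCN and 1 under DMSO with the length offset. These counts were not set beside the share of all genes called in the same setting, so none is read as an excess. The cause of these changes was not tested.

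Leaving out 1 library gave 2 to 5 mitochondrial and 1 to 3 nuclear calls for PCN in FF, 0 to 1 mitochondrial calls in dMye, 0 to 2 mitochondrial and 1 to 9 nuclear calls under DMSO, and 1 to 3 mitochondrial and 2 to 20 nuclear calls under PCN. These counts were not set beside the share of all genes called with the same library left out. The nuclear count under DMSO, 4 with all libraries, was 1 without any one of the 3 FF_DMSO libraries, dMye_DMSO 2, dMye_PCN 1 or dMye_PCN 6, 2 without FF_PCN 1, dMye_PCN 2 or dMye_PCN 3, 7 without dMye_DMSO 1 and 9 without dMye_DMSO 6. Under PCN, 3 with all libraries, it was 20 without dMye_DMSO 5 and 5 without dMye_PCN 4, and the mitochondrial count was 1 without FF_PCN 3. For PCN in FF the nuclear count was 3 without dMye_DMSO 5 and 2 without dMye_PCN 5. Mitochondrial counts were 2 under DMSO without dMye_DMSO 4, and 1 for PCN in dMye without dMye_DMSO 6 or dMye_PCN 5. Calls of single named genes were lost in 14 pairs of gene and other setting, and in 39 pairs of gene and library left out. Upper-quartile scaling moved the share of higher calls over all genes to 38.2% for PCN in FF, 31.2% in dMye, 76.0% under DMSO and 74.8% under PCN, against 49.4%, 45.2%, 64.0% and 58.8%. No paired analysis was possible because the labels give the groups no shared replicate numbers. The 6 untested members lay too near the counting floor to be compared. Groups of 3 libraries limit every FF value.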
